A study of Homo sapiens with 2 samples.

Results

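PHF8 peaks were examined at 70 genes that encode core spliceosome proteins and splicing regulators, out of 19122 protein-coding autosomal genes in RefSeq (GRCh38.p14). The genes were taken by symbol, as those starting with SNRP (12 genes), SF3A (3), SF3B (6), PRPF (12), SRSF (12) or HNRNP (25) followed by a letter or digit. A gene was counted as occupied when the midpoint of a peak lay within 1 kb of its annotated start or end. The data were chromatin immunoprecipitation sequencing (ChIP-seq) of PHF8 in RKO, an established human colon carcinoma line. One library came from cells that had received the empty vector and the other from cells that had received a plasmid for APOC2 overexpression, so there was 1 library per condition. APOC2 is an apolipoprotein that activates lipoprotein lipase. The levels of APOC2 and PHF8 in these cells, and the share of transfected cells, are not measured by the peak tables. There were 4015 peaks in the vector table and 8928 in that of APOC2. Without replicates no test between the conditions was possible, and every difference below describes these libraries only.

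PHF8 is a Jumonji-type histone demethylase that removes repressive methyl marks. Its PHD finger binds the trimethylated lysine of histone H3 found at active promoters, so the protein is known from the start sites of active genes. The spliceosome is assembled on each intron from small nuclear ribonucleoproteins (snRNPs). Each is built of a small nuclear RNA, a ring of Sm proteins (or, on U6 RNA, of LSM proteins) and particle-specific proteins. SR proteins and heterogeneous nuclear ribonucleoproteins (hnRNPs) bind the transcript itself and, broadly, promote or silence the use of nearby splice sites.

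To show the promoters behind the comparison, 6 genes occupied in both tables are given with 2 genes occupied in neither. RefSeq promoter windows (GRCh38.p14) were matched for 61 of the 70 genes by gene ID. The 250 bases before the gene start are printed 5′ to 3′ in the direction of the gene. Capitals mark matches, on either strand, to any of 9 short motifs that were searched: GGGCGG (known as the core of a Sp-factor site), CCGGAAG (ETS factors), CCAAT (NF-Y), TATAAA (TBP), GCATGCGC (NRF1), AAGATGGCG (YY1), TTTGGCGC (E2F), TTTCCCGC (also E2F) and TGACGTCA (CREB). Motif names are background, and a match is only a run of letters; overlapping matches were each counted. SF3A1 is shown for the largest ratio of depth-scaled signal, PRPF8 for the highest vector enrichment, SNRPD3 for a peak across its start, SRSF4 and HNRNPLL as an SR and an hnRNP gene with higher values in the APOC2 table, and HNRNPA0 as the gene without a higher fold enrichment there. SRSF1 and HNRNPCL1 had no peak.
SF3A1, chr22:30356895-30357144, minus strand: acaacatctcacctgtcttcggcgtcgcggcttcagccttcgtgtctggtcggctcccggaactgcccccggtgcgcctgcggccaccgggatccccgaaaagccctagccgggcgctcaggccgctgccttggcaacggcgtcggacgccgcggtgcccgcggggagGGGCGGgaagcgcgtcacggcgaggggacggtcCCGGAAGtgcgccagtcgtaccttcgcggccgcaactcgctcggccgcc
PRPF8, chr17:1684868-1685117, minus strand: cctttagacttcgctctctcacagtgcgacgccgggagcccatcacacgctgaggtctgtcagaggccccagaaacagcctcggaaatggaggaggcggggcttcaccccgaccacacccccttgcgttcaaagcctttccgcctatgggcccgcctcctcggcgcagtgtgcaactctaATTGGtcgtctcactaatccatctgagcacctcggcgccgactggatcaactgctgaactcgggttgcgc
SNRPD3, chr22:24555400-24555649, plus strand: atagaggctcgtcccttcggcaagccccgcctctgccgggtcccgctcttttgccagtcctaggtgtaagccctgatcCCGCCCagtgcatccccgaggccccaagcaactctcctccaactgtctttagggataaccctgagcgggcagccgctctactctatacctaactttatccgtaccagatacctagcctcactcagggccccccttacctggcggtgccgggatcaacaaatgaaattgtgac
SRSF4, chr1:29181901-29182150, minus strand: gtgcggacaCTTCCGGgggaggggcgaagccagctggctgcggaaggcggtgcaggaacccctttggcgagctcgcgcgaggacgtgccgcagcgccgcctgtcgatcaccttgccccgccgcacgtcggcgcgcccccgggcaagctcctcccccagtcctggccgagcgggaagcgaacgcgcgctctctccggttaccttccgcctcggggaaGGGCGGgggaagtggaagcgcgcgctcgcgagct
HNRNPLL, chr2:38602929-38603178, minus strand: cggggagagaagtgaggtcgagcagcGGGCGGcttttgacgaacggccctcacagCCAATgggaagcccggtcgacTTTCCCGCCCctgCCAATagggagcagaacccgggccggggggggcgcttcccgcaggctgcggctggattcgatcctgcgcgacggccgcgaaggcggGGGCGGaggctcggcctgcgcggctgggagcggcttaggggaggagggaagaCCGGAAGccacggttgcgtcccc
HNRNPA0, chr5:137754364-137754613, minus strand: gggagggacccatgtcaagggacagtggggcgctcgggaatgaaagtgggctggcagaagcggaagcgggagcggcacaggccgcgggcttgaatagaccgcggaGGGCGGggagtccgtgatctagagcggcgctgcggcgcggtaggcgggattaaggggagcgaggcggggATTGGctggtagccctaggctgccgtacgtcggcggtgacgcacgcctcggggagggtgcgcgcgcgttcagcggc
SRSF1, chr17:58007247-58007496, minus strand: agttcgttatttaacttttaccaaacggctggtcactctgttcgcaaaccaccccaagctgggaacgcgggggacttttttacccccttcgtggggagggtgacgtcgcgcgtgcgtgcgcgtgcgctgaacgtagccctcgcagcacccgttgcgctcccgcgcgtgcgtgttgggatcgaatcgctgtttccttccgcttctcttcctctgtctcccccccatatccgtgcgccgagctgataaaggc
HNRNPCL1, chr1:12848721-12848970, minus strand: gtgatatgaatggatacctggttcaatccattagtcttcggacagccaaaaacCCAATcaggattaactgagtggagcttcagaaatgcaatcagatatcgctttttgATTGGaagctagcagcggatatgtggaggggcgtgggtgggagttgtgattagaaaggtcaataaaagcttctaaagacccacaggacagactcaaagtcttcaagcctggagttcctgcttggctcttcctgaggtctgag
The SF3A1 and SRSF4 stretches each held GGGCGG and an ETS motif, and that of HNRNPLL held both together with CCAAT and an E2F motif. The SRSF1 stretch held none of the 9 motifs although it had 28 CpG dinucleotides. HNRNPCL1, a gene copy related to HNRNPC, had 4 CpG dinucleotides, the fewest of the 8, against 38 at SF3A1.

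Of the 70 splicing genes, 8 were occupied in the vector table (11.4%, exact 95% binomial interval 5.07 to 21.3%), where 6.19% of all coding autosomal genes were. In the APOC2 table, 33 were (47.1%, 35.1 to 59.4%), where 24.7% of all coding autosomal genes were. All 8 genes of the vector table were also occupied in the APOC2 table, as were 1162 of 1183 coding genes with a vector peak. Another 25 genes were occupied in the APOC2 table alone (35.7%, against 18.6% of all coding genes). The other 37 were occupied in neither (52.9%, against 75.2%). No splicing gene was occupied in the vector table alone, where 0.110% of all coding genes were. At 0 of 70 genes the interval allows a share of up to 5.13%. Such intervals cover counting error over genes only. In both the splicing genes and the whole gene set, the occupied share was thus larger in the APOC2 table, which lists more peaks. In each table the splicing genes had the larger share. For the vector table the interval of 5.07 to 21.3% includes the coding share of 6.19%, so the difference there was not resolved. With the APOC2 table limited to as many peaks as the vector table, 22 splicing genes (31.4%) and 13.0% of all coding genes were occupied in it. At that setting 15 splicing genes (21.4%) were occupied there alone, and the matching share of all coding genes is not given. Peaks that are missing from a table may still have signal there, since only called peaks are listed. Each of the 25 genes occupied in the APOC2 table alone had a peak with a -log10 p of at least 8.51 there. The lowest value in the vector table was 4.70. The 25 genes were taken for having an APOC2 peak, so these values say nothing about the vector signal at them.

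**Figure D1:**
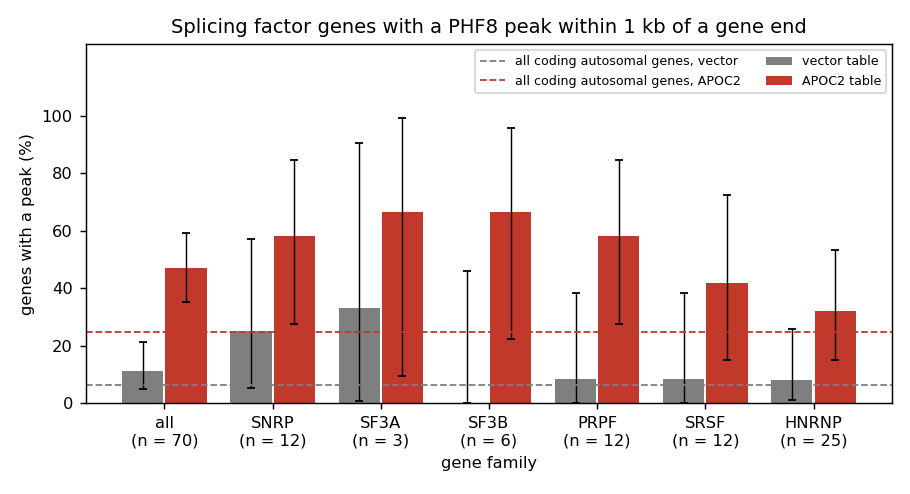
Share of genes with a PHF8 peak within 1 kb of an annotated gene end (vertical axis, percent) for all 70 splicing genes and for each family, in the vector (grey) and the APOC2 (red) table. Bars are shares of genes with exact 95% binomial intervals, and dashed lines give the shares of all coding autosomal genes, 6.19% and 24.7%; every family had more occupied genes in the APOC2 table.

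By family, the SNRP genes, for Sm proteins and for particle-specific proteins of the U1 and U2 snRNPs, were occupied at 3 of 12 with the vector and 7 of 12 (58.3%) with APOC2. The SF3A and SF3B genes encode the U2 complexes that hold the branch point. Of the SF3A genes, 1 of 3 was occupied with the vector and 2 of 3 with APOC2. Of the SF3B genes, 0 of 6 were occupied with the vector and 4 of 6 with APOC2. The PRPF genes, most of them for proteins of the tri-snRNP and of other spliceosome complexes, went from 1 of 12 to 7 of 12. The SRSF genes, for SR proteins, had 1 of 12 and 5 of 12 occupied. The HNRNP genes had the lowest APOC2 share, with 2 of 25 with the vector and 8 of 25 (32%) with APOC2. The exact intervals of the family shares overlapped, from 27.7 to 84.8% for SNRP and from 14.9 to 53.5% for HNRNP in the APOC2 table, so the order of the families was not resolved.

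**Figure D2:**
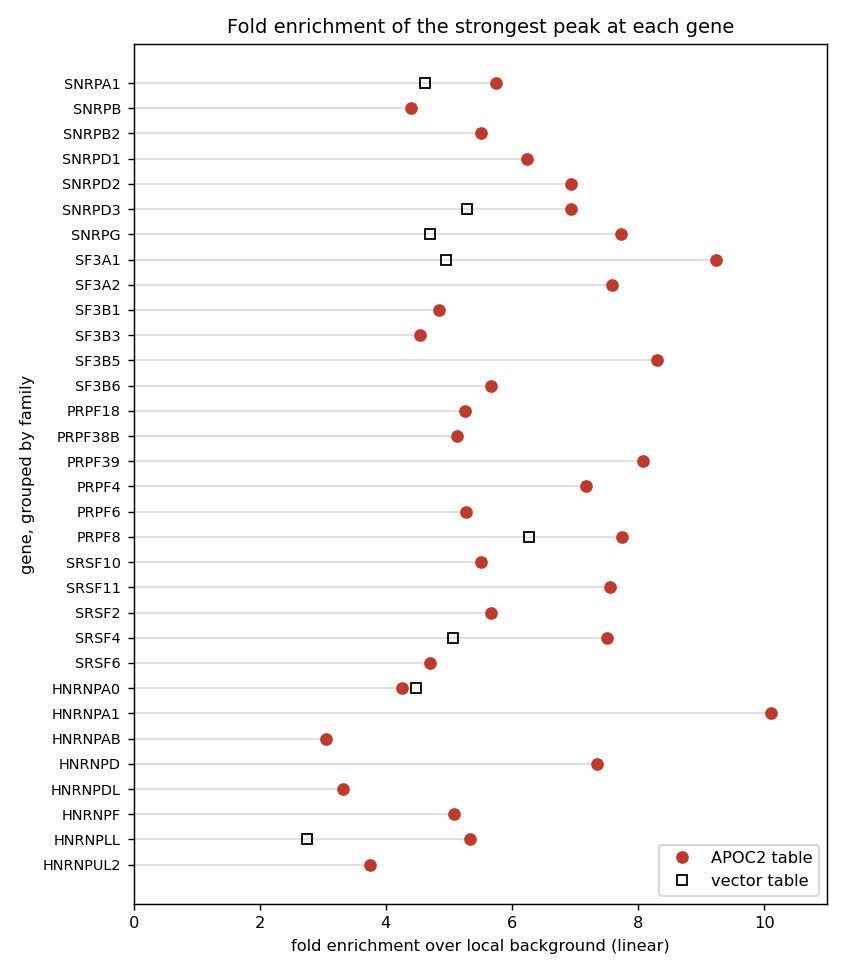
Fold enrichment over local background (horizontal axis, linear, from the authors' tables) of the strongest peak at 32 of the 33 occupied genes, in the APOC2 table (red circles) and, for the 8 genes with a peak there, in the vector table (open squares). The APOC2 values run from 3.05 at HNRNPAB to 10.1 at HNRNPA1, and of the 8 genes with both values HNRNPA0 alone has the higher one in the vector table (not when pileups are scaled for depth).

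Among the snRNP proteins, SNRPD3, SNRPG and SNRPA1 carried peaks in both tables. SNRPD3 and SNRPG are Sm ring subunits, and SNRPA1 encodes the U2-specific protein A′. At SNRPG the fold enrichment was 4.70 with the vector and 7.72 with APOC2, where the summit pileups were 18 and 26 fragments. SNRPD3 had 5.28 and 6.93, with 31 and 29 fragments at the strongest peak, and SNRPA1 had 4.62 and 5.74, with 41 and 43 fragments. The fold enrichment was higher in the APOC2 table at all 3 genes, while the fragments were fewer there at SNRPD3 before, though not after, scaling for depth as described below. The Sm genes SNRPD2, SNRPD1 and SNRPB and the U2-specific SNRPB2 were occupied in the APOC2 table alone, at fold enrichments of 6.93, 6.24, 4.40 and 5.50. SNRPA and SNRPC, for the U1-specific proteins, had no peak in either table. The Sm genes SNRPE and SNRPF and SNRPN, an imprinted Sm gene of neurons, had none either. Of the Sm ring genes SNRPB, SNRPD1, SNRPD2, SNRPD3, SNRPE, SNRPF and SNRPG, all but SNRPE and SNRPF were therefore occupied in the APOC2 table.

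At the U2 branch-point complexes, SF3A1 was the gene with a vector peak. Its fold enrichment was 4.95 with the vector and 9.24 with APOC2, and the pileups were 24 and 39 fragments. Both peaks also lay within 1 kb of a boundary of the coding gene CCDC157, so they cannot be given to either gene. Among the 4714 coding autosomal genes with an APOC2 peak, 402 (8.53%) had a higher fold enrichment than SF3A1. SF3A2 was occupied in the APOC2 table alone, at 7.59, and SF3A3 in neither. SF3B5 and SF3B6, for the small subunits of SF3B, had APOC2 fold enrichments of 8.29 and 5.66. SF3B1, for the large scaffold that is recurrently mutated in myeloid neoplasms, had 4.84, and SF3B3 had 4.54. These 4 genes had no vector peak within 1 kb; the nearest vector peak to SF3B1 lay 18.7 kb away and the others were over 100 kb away. SF3B2 and SF3B4 were unoccupied in both tables.

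Of the PRPF genes, PRPF8, the core protein of the U5 snRNP that cradles the active site, had the highest vector value of all 70 genes. Its vector peak had a fold enrichment of 6.27 and 37 fragments, and its APOC2 peak 7.75 and 39 fragments. PRPF39, for a U1-associated protein, was occupied in the APOC2 table alone, at 8.08 with a pileup of 34. PRPF4, a U4/U6 snRNP gene on the long arm of chromosome 9, had an APOC2 peak of 7.17 with a pileup of 42. It was 1 of 2 splicing genes on chromosome 9, and the other, HNRNPK, was unoccupied; none lay on chromosome 8. PRPF6, a bridging protein of the tri-snRNP, had 5.27, PRPF18, a second-step factor, 5.25 and PRPF38B 5.12. Those values lay close together and near the median of 5.41 over all coding genes with an APOC2 peak. PRPF3, PRPF19, PRPF31, PRPF38A and PRPF40B were unoccupied in both tables, including the U4/U6 genes PRPF3 and PRPF31 and PRPF19, the ubiquitin ligase of the complex named after it.

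Among the SR protein genes SRSF4 was occupied in both tables. Its fold enrichment was 5.06 with the vector and 7.51 with APOC2, and its pileups were 35 and 44 fragments. SRSF11, SRSF2, SRSF10 and SRSF6 were occupied in the APOC2 table alone, at 7.55, 5.67, 5.50 and 4.70. SRSF2 is the speckle protein SC35 and SRSF10 an SR protein that can repress splicing. The SRSF2 peak also lay within 1 kb of boundaries of MFSD11 and MIR636, and the SRSF11 peak within 1 kb of LRRC40. SRSF1, SRSF3, SRSF5, SRSF7, SRSF8, SRSF9 and SRSF12 had no peak in either table, so the prototype SR protein gene SRSF1 and the small SR genes SRSF3 and SRSF7 were among the unoccupied.

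The hnRNP genes held both the highest and the lowest APOC2 values. HNRNPA1, for an abundant repressor of splice site use, had a fold enrichment of 10.1 with a pileup of 26 at chromosome 12, 54280729 to 54281020, and no vector peak within 1 kb. Only 264 of the 4714 coding genes with an APOC2 peak had a higher value, but the peak also lay within 1 kb of a boundary of CBX5, the gene of a heterochromatin protein, so that it cannot be given to either gene. HNRNPD, for an AU-rich element binding protein, had 7.34, HNRNPF, which binds G tracts, 5.08, HNRNPUL2 3.74, HNRNPDL 3.32 and HNRNPAB 3.05. The pileups ranked otherwise, since HNRNPUL2, HNRNPDL and HNRNPAB had 37, 30 and 35, above that of HNRNPA1. HNRNPD and HNRNPF had 25 and 21. The local background was 1.66 at HNRNPA1 and 10.8 at HNRNPAB. HNRNPLL, a regulator of CD45 splicing in lymphocytes, had 2.75 with 24 fragments with the vector and 5.34 with 31 with APOC2. HNRNPA0 had 4.48 with 36 fragments and 4.25 with 31, so both values were lower in the APOC2 table, although the pileup scaled for depth was slightly higher there, at 37.2 against 35.6. Of the 17 HNRNP genes without a peak, 6 were copies with HNRNPCL or HNRNPA1L symbols: HNRNPCL1, HNRNPCL2, HNRNPCL3, HNRNPCL4, HNRNPA1L2 and HNRNPA1L3. The others were HNRNPA2B1, HNRNPA3, HNRNPC, HNRNPH1, HNRNPH3, HNRNPK, HNRNPL, HNRNPM, HNRNPR, HNRNPU and HNRNPUL1, which include the genes of widely expressed core hnRNPs.

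The 8 genes with peaks in both tables allowed a direct comparison of enrichment. The ratio of APOC2 to vector fold enrichment, on the log2 scale, was above 0 at 7 of 8, where 89.6% of 1162 coding genes with a peak in both tables had a ratio above 0. Its median was 0.48 (range -0.08 to 0.96), against 0.52 over the 1162 genes. The largest ratios were 0.96 at HNRNPLL, 0.90 at SF3A1 and 0.72 at SNRPG, followed by SRSF4 (0.57), SNRPD3 (0.39), SNRPA1 and PRPF8 (0.31 each) and HNRNPA0 (-0.08). The local background was lower in the APOC2 table at HNRNPLL, at 4.99 against 8 fragments, and after scaling to the control it was 6. The pileups were therefore also brought to the depth of the control, which gave 0.824 times the vector depth for the APOC2 library if both tables shared a control. On this scale the ratio of APOC2 to vector pileup was 1.97 at SF3A1 (exact 95% interval 1.16 to 3.43), the only gene of the 8 whose interval for counting error lay above 1. It was 1.75 at SNRPG (0.925 to 3.40), 1.57 at HNRNPLL (0.891 to 2.79) and 1.53 at SRSF4 (0.957 to 2.45). At HNRNPA0 it was 1.05 (0.625 to 1.74), at SNRPD3 1.14 (0.660 to 1.95), at SNRPA1 1.27 (0.810 to 2.0) and at PRPF8 1.28 (0.795 to 2.06), so at 7 genes a difference was not detectable at this depth. The intervals assume independent fragments, take the depth factor of 0.824 as exact and do not include variation between cultures. Without that factor all 8 ratios and their bounds would be lower, so the bound of 1.16 at SF3A1 depends on it. The SF3A1 and SNRPD3 peaks also lay within 1 kb of a boundary of another coding gene.

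**Figure D3:**
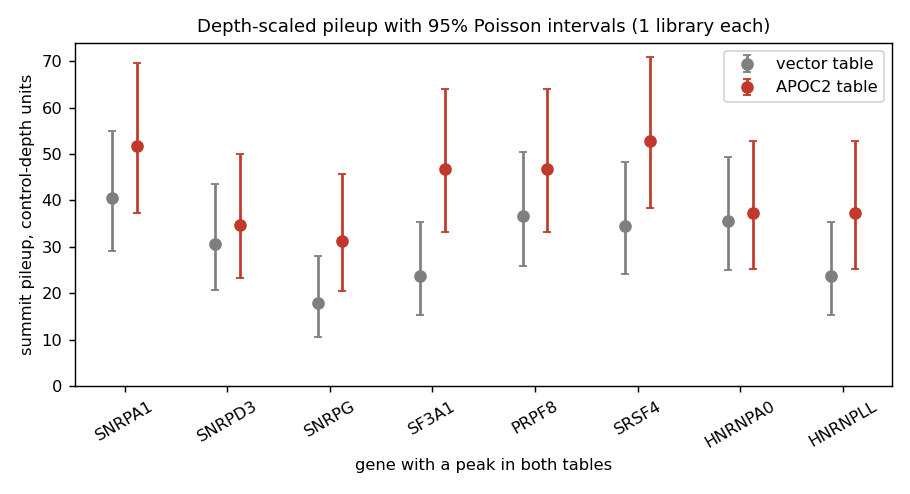
Summit pileup at the 8 splicing genes with a peak in both tables (vertical axis, in fragments scaled to the depth of the control), vector in grey and APOC2 in red. Points are single libraries and bars are exact 95% Poisson intervals for counting error only; the largest gap is at SF3A1, 23.8 against 46.8, and the smallest at HNRNPA0, 35.6 against 37.2.

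The paired peaks coincided in position. On chromosome 22, the SF3A1 peak spanned 30356660 to 30356883 in the vector table and 30356623 to 30356910 in that of APOC2, and the SNRPD3 peak 24555497 to 24555794 and 24555473 to 24555861. On chromosome 2 lay the peaks of SNRPG, at 70293492 to 70293717 and 70293432 to 70293738, and of HNRNPLL, at 38602532 to 38602827 and 38602343 to 38602928. The PRPF8 peak on chromosome 17 covered 1684551 to 1684861 and 1684469 to 1684894, and the SRSF4 peak on chromosome 1 covered 29181554 to 29181916 and 29181445 to 29181932. Those of SNRPA1 were on chromosome 15 at 101294826 to 101295165 and 101294760 to 101295198, and those of HNRNPA0 on chromosome 5 at 137754061 to 137754284 and 137753972 to 137754333. At all 8 genes they overlapped, and the summits lay 4 to 31 bp apart. The APOC2 peak was the longer at all 8, as at HNRNPLL with 586 bp against 296 bp and at SNRPD3 with 389 bp against 298 bp. At splicing genes without a vector peak, the medians for APOC2 peaks were 5.50 for fold enrichment, 30 for pileup and 287 bp for length, against 7.22, 35 and 408 bp at the 8 genes with one. Over all coding genes the same medians were 5.00, 27 and 281 bp without and 7.23, 36 and 455 bp with a vector peak. For the splicing genes the ratio of the fold enrichment medians was 0.763, and the bounds set by the exact intervals of both medians, 0.550 to 1.63, include 1, so the order of the medians was not resolved at 25 and 8 genes.

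Peaks at the splicing genes lay on the start side of the gene wherever the strand was known. Of the 38 APOC2 peaks, 32 belonged to genes with a known strand, and all 32 were nearer to the start than to the end of the gene, as were all 8 vector peaks. Over all coding genes with a known strand the start-side shares were 97.4% of APOC2 and 97.8% of vector peaks. The SRSF11 peak had its midpoint 185 bp from the annotated gene boundary, but its summit was at -15511 bp from the RefSeq promoter start. SRSF11 still counts as occupied in the CpG and motif comparisons below. The strongest APOC2 peak lay within 1 kb of the RefSeq promoter start at 26 genes, with a median summit position 142 bp downstream of it. At 22 of these 26 (84.6%) the summit was downstream, against 73.8% of 3564 coding genes. The summits of SRSF10, SF3A1, SNRPB2, SF3B5 and PRPF8, for example, fell at 123, 127, 139, 145 and 154 bp. The strongest peaks at SNRPG, PRPF38B, HNRNPD and HNRNPF had their summits upstream, at -153, -207, -379 and -622 bp. The window start used for SNRPG lies inside its annotated gene interval, so its summit was within the gene. That used for HNRNPF also lies inside its gene interval. The HNRNPF summit was outside the gene, with the peak midpoint 330 bp from the annotated boundary. Whether summits were exonic or intronic was not determined, since exons were not used here.

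Peaks on both sides of a start occurred at 4 genes, each with another gene boundary beside it. SNRPD3 had 3 APOC2 peaks, with summits at -627, 30 and 496 bp and fold enrichments of 6.39, 6.93 and 5.40, next to GUCD1. In the vector table SNRPD3 had a single peak, with its summit at -1 bp. SNRPD2 had peaks at -460 and 513 bp with 6.86 and 6.93, next to QPCTL, SF3A2 at -740 and 196 bp with 5.17 and 7.59, next to PLEKHJ1, and PRPF4 at -364 and 113 bp with 7.11 and 7.17, next to CDC26. More than 1 APOC2 peak was thus found at 12.1% of the occupied splicing genes, and at 11.1% of all occupied coding genes. Another coding gene had a boundary within 1 kb of an APOC2 peak at 13 of the 33 genes (39.4%), against 32.1% of all occupied coding genes. At these 13 genes the signal cannot be assigned to the splicing gene rather than to its neighbour. Besides genes whose coding neighbour is named above, they include SF3B3 (next to COG4) and SF3B6 (FAM228B). HNRNPDL (ENOPH1) and HNRNPUL2 (TTC9C) are also among them, so the values given above for these genes carry the same limit.

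**Figure D4:**
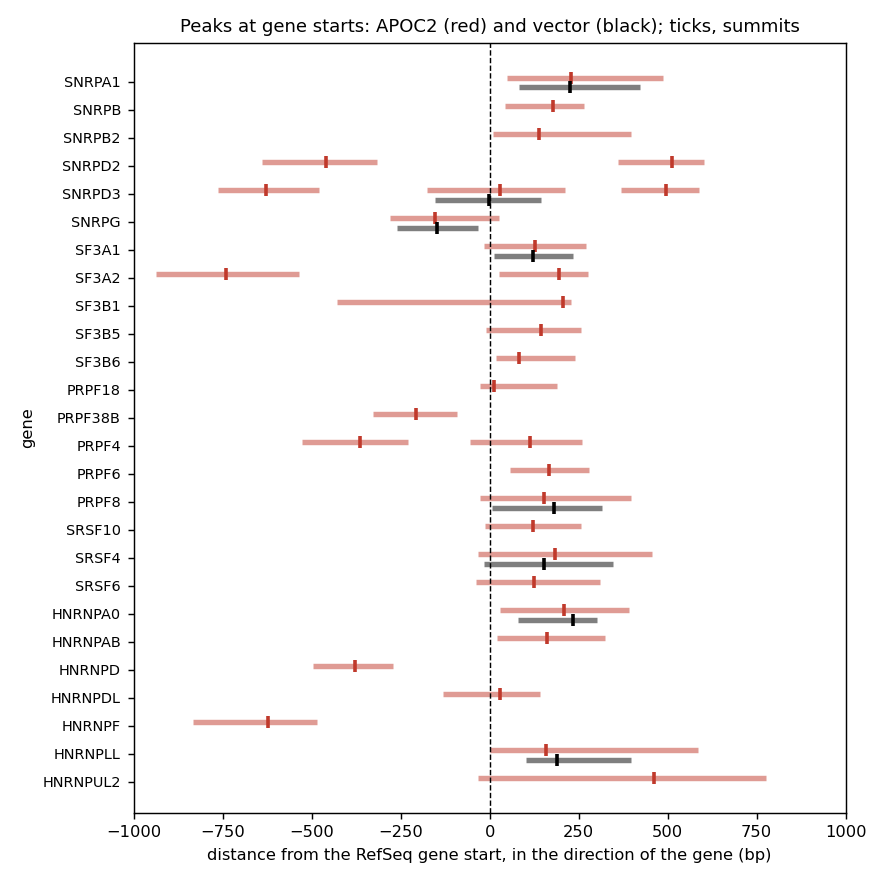
Peaks around the RefSeq start of 26 splicing genes (0 on the horizontal axis, distance in bp in the direction of the gene), with APOC2 peaks in red and vector peaks in black; bars span the peak and ticks mark the summit. Of the 31 APOC2 summits drawn, most lie downstream of the start, and SNRPD2, SNRPD3, SF3A2 and PRPF4 have peaks on both sides of the start.

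The 1 kb limit left few genes near its edge. Inside it, the strongest APOC2 peaks of SNRPD2, SRSF2 and HNRNPD had their midpoints 482, 406 and 384 bp from the gene boundary. Just outside lay the APOC2 peaks next to SRSF1 at 1079 bp with a fold enrichment of 2.79, SF3B2 at 1118 bp with 5.16, HNRNPL at 1334 bp with 3.22 and HNRNPUL1 at 2650 bp with 8.08. The HNRNPL peak lay inside the gene, on the side of its start. The other 3 lay beyond the end of the gene and not at its start.

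Occupancy was then set against the CpG content of the 300-base promoter window, which runs from 250 bases before to 50 bases after the start. Occupied splicing genes had a median of 29 CpG dinucleotides in the APOC2 table and unoccupied ones 26. The APOC2 share was 0 of 5 splicing genes with 0 to 9 CpG dinucleotides, 3 of 9 (33.3%) with 10 to 19, 11 of 24 (45.8%) with 20 to 29 and 13 of 23 (56.5%) with 30 or more. Coding genes here and in the motif comparison below are the 15100 of 19122 autosomal ones with a promoter window. Their shares were 4.69%, 21.8%, 32.0% and 39.5% in the same bins, so the share was larger in CpG-rich promoters in both sets. In the 3 bins from 10 CpG dinucleotides up the splicing genes had the larger share. Of the 8 splicing genes occupied in the vector table, 5 (62.5%) had 30 or more, near the 51.2% of the 882 coding genes with a window that were occupied there.

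**Figure D5:**
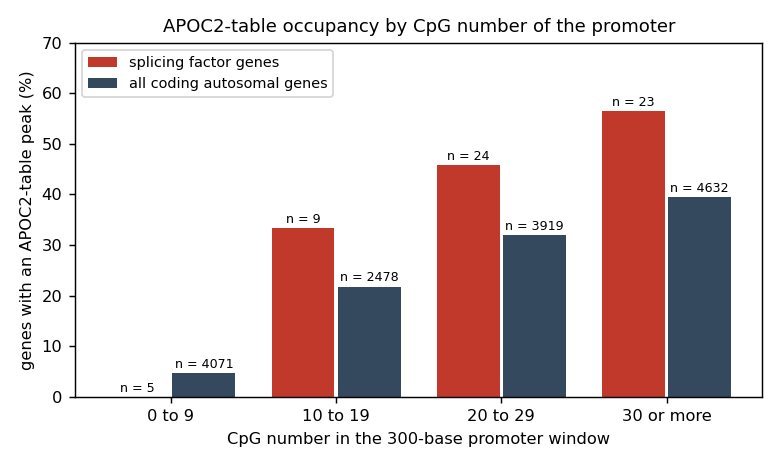
Share of genes with an APOC2-table peak (vertical axis, percent) by the number of CpG dinucleotides in the 300-base promoter window. Splicing genes (red) and coding autosomal genes (blue) are those with such a window, and the number of genes stands above each bar. The share is larger with more CpG dinucleotides in both sets, up to 56.5% and 39.5%.

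Of the motifs, the ETS letters CCGGAAG had the largest gap in percentage points between splicing and coding genes. They stood in the promoter window of 20 of 61 splicing genes (32.8%), against 14.4% of coding autosomal genes and 10.7% of all 27304 promoters in the table. Among the splicing genes they were in 14 of 27 with an APOC2 peak (51.9%) and in 6 of 34 without (17.6%). Among all coding genes with a promoter window these shares were 22.5% and 11.6%. CCAAT went the other way among the splicing genes, at 10 of 27 with an APOC2 peak (37.0%) and 17 of 34 without (50%), while all coding genes had 35.9% and 36.0%. GGGCGG was in 66.7% of splicing genes with and 52.9% of those without an APOC2 peak, against 77.0% and 52.7% of coding genes. The motif GGGCGG stood in 59.0% of splicing and 58.9% of coding gene promoters, and in 44.6% of all promoters. CCAAT was found in 44.3% of splicing genes, 36.0% of coding genes and 35.7% of all promoters, and TATAAA in 9.84%, 9.71% and 12%. In the same order, the shares were 4.92%, 2.79% and 1.85% for AAGATGGCG, 4.92%, 2.17% and 1.66% for TTTCCCGC, and 3.28%, 4.19% and 3.27% for GCATGCGC. They were 1.64%, 0.921% and 0.659% for TTTGGCGC, and TGACGTCA stood in 0 of 61 splicing genes, 2.65% of coding genes and 1.98% of all promoters. The 61 splicing promoters are too few to resolve the rarer motifs.

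Splicing genes with other names were counted by the same rule, from a list of 107 autosomal genes ordered by role. Of these, 13 (12.1%) were occupied with the vector and 47 (43.9%) with APOC2, shares close to those of the 70 genes. The LSM genes, whose products form the ring on U6 RNA, had 1 of 7 and 5 of 7, and the U1 and U2 recognition factors had 4 of 16 and 8 of 16. The tri-snRNP and minor spliceosome genes had 2 of 15 and 7 of 15, those of the PRPF19 complex and the activated spliceosome 2 of 22 and 8 of 22, other splicing regulators 4 of 31 and 14 of 31, and splicing kinases and snRNP assembly factors 0 of 16 and 5 of 16. The U5 gene TXNL4A had the highest values, with enrichments of 10.4 (vector) and 13.6 (APOC2). Of the 12 listed genes with a peak in both tables, 11 had the higher fold enrichment in the APOC2 table. That was near the 89.6% of all 1162 coding genes with both peaks. The unscaled summit pileups did not all go the same way. They were lower in the APOC2 table at DDX42 (48.5 and 36) and LSM5 (33.6 and 20), and higher at CWC27 (15.8 and 28). These genes were named after their values were seen. The log2 ratio was largest at CWC27, with 3.37 (vector) and 8.19 (APOC2), and below 0 at CWC22 alone, with 8.42 and 6; both encode spliceosome-associated proteins and were named after their values were seen. RALY, an hnRNP-like gene, had a vector peak of 3.06 and no APOC2 peak by this rule, the only gene of the list in that class.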

How the data were processed

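PHF8 ChIP-seq peak tables of 2 conditions were used, each from 1 library and called per library. The submitters' processing notes name Bowtie2 2.2.9, MACS2 2.0, HOMER and the build hg38; the control library, thresholds and handling of duplicates are not given in the sources used here. Per the file headers, the deposited tables give the signal at each summit as a fragment pileup, and a fold enrichment, a ratio over local background. A pair of deposited columns whose names were lost was read as -log10 p and -log10 q, from their place and values. The highest q listed was 0.0266 (vector) and 0.0450 (APOC2).

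The members and lists were chosen with earlier results of these data known. Gene intervals and promoter sequences came from RefSeq tables for GRCh38.p14, with strand known for 61 of 70 genes. The peak with the highest fold enrichment stood for a gene. Vector pileups were multiples of 0.98953 and APOC2 backgrounds were spaced by 0.832 (64.3% of those above 1.5, tolerance 0.005, searched between 0.7 and 1.01). These steps gave the relative depths, while absolute depth is unknown. ChIP fragments carried no molecular identifiers and may be copies of one molecule, so intervals cover counting error only. Named genes were, by rule, all with a vector peak and, in each family, the 3 strongest and 2 weakest with a peak in the APOC2 table alone, with unoccupied genes by name; the values of 1 PRPF gene are not reported here. CpG bins and the whole-gene count were added after seeing the data. Shares carry exact Clopper-Pearson intervals and scaled ratios exact conditional binomial intervals (scipy 1.17.1). The occupancy rule was tested on simulated data with 200 planted peaks.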

Additional observations from a re-analysis of the deposited data

How the results depend on the processing

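With 1 library per condition, leaving out replicates was not possible. Of 20 recomputed counts of occupied splicing genes (in the vector table, in the APOC2 table and in the APOC2 table alone), 15 stayed within 1.5 times the main count and 5 did not; the vector count at equal peak numbers is left out, since that setting cannot change it. If only peaks lying across a gene boundary counted, 2 genes (SRSF4 and SNRPD3) were occupied in the vector table, 13 in the APOC2 table and 11 in the APOC2 table alone, where 1.52% and 8.87% of all coding genes were occupied. If fold enrichment had to reach 5, the vector count was 3 (SRSF4, PRPF8 and SNRPD3) and the APOC2 count 25, against 3.35% and 14.6% of all coding genes. With equal numbers of peaks in both tables, 15 genes were occupied in the APOC2 table alone, 22 in the APOC2 table in all and 8 in the vector table, so that 1 gene, HNRNPA0, was in the vector table alone; of all coding genes, 13.0% were then occupied in the APOC2 table and 6.19% in the vector table. These genes were named after their values were seen. For the counts in the APOC2 table alone at these settings, the share of all coding genes is not given, so those counts cannot be read against it. In each of the 7 settings for occupancy, more genes were occupied in the APOC2 table. The median log2 ratio at genes with both peaks ran from 0.22 with raw pileup to 0.61 with -log10 p, and the ratio of median APOC2 values without over with a vector peak from 0.731 to 0.857, around 0.763. The interval of the former, -0.08 to 0.96, is the whole range of the 8 genes and includes 0, and that of the latter includes 1, so neither interval can show stability. The 3 settings that changed only which peaks were paired used 8 pairs and left the median at 0.48. Depth limits the comparison of single genes.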
